A study of Mus musculus with 4 samples.

Results

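*Mllt3* and 6 genes whose products work with the MLL histone methyltransferase or with its fusion partners (*Mllt1*, *Mllt10*, *Aff1*, *Aff4*, *Dot1l* and *Men1*) were followed in LSK cells that had lost *Meis1*. The members were chosen by symbol, as the non-control probes that the array names for one of these genes. This gave 20 probes for 7 genes, of 41174 probes and 28095 gene names on the array. LSK cells (lineage-negative, Sca-1+, c-Kit+) are the bone marrow fraction that holds hematopoietic stem and early progenitor cells, and the labels call them KSL cells. RNA was hybridized to 4 single-color arrays, 2 per genotype, each from a pool of mice.

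The Meis1-KO pools came from mice that carried *Mx1-Cre* and 2 floxed *Meis1* alleles (Mx1-Cre positive Meis1fl/fl), in which exon 8, which encodes the homeodomain, is removed. The control pools, labelled Meis1-WT and wild type, came from Meis1fl/fl mice without the transgene, so that both genotypes carried the floxed alleles. All mice were C57BL/6J. Per the labels, mice of both genotypes were injected with poly(I:C) at a dose of 1.5 ug/g when they were 4 to 8 weeks old, in 4 injections spaced by 1 day, whereas the design text and the array methods call the control mice sham-treated. Exposure to poly(I:C) and genotype therefore cannot be told apart if the second description holds. *Mx1-Cre* is driven by an interferon-responsive promoter that is active beyond hematopoietic cells. LSK cells were collected a week after poly(I:C).

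MLL (Mll1 on this array) is a methyltransferase that marks active promoters on histone H3 lysine 4 and sustains *Hox* gene expression in hematopoietic progenitors, and menin (*Men1*) tethers it to chromatin. In human leukemia, MLL is fused by translocation to AF9 (*Mllt3*), ENL (*Mllt1*), AF10 (*Mllt10*) or AF4 (*Aff1*), among other partners. AF9 and ENL are closely related YEATS-domain proteins that read acylated histones and bind both to the H3 lysine 79 methyltransferase DOT1L and to the AFF scaffolds of the super elongation complex, which releases paused RNA polymerase.

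The sequences of 4 *Mllt3* probes and 1 *Dot1l* probe are shown because the probes of these genes did not move alike. Coordinates are those of the array annotation on mm9, and sequences run 5′ to 3′. A_52_P619007 (chr4:87418602-87418661, minus strand) and A_51_P394484 (chr4:87418582-87418641, minus strand) share 40 of their 60 bases, so that they are not independent measurements. A stretch of 30 bases of each is given, with the shared bases in capitals.
A_52_P619007, bases 11 to 40: tcttgtccttGTTGTACCTTTGTTTTGAAA
A_51_P394484, bases 1 to 30: GTTGTACCTTTGTTTTGAAACTAGAAATCT

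A_52_P329934 (chr4:87419915-87419974, minus strand) is a separate *Mllt3* probe and is given whole. A_52_P530665 (chr4:87415812-87415842, minus strand) is mapped over only 31 of its 60 bases, and runs of 4 or more G are in capitals in its first 30 bases. The longest run of G was 6 bases both in this probe and in A_52_P619007, where it lies outside the stretch printed above.
A_52_P329934: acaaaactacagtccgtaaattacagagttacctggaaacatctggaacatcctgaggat
A_52_P530665, bases 1 to 30: ttacagctgaaGGGGGcGGGGGaGGGGGGt

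The *Dot1l* probe A_52_P324965 (chr10:80244203-80245929, plus strand) is spread over 1727 genomic bases, which means that its 60 bases lie in more than a single block of the genome. The last *Mllt3* probe, A_52_P1066847 (chr4:87415836-87415895, minus strand), partly overlaps the mapped stretch of A_52_P530665. Whether the probes lie in coding or untranslated sequence was not analysed here.
A_52_P324965: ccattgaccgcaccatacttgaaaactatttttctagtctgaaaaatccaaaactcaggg

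Values are log2 signals after the 75th percentile of each array was subtracted, so that 0 is the level of that percentile, and a difference of 1 is 2-fold. The main probe of a gene was taken as the one with the highest mean over the 4 arrays. The study's criteria for differential expression were a change of more than 2-fold and an unadjusted p under 0.01. All 20 probes entered the test, which required both arrays of either genotype to be well above background, and 16 of them were well above background on all 4 arrays. None of the 20 met the criteria in limma's moderated test, and 2 had an unadjusted p under 0.05. Over all 22007 tested probes, 0.736% met the criteria (132 lower and 30 higher), 2.81% had an unadjusted p under 0.05, and the lowest Benjamini-Hochberg adjusted p was 0.467. With the slide as a block, again none of the 20 met the criteria, while 1.99% of all tested probes did (1.4% lower and 0.591% higher). In that fit 4 of the 20 had an unadjusted p under 0.05 (3 of *Mllt3* and 1 of *Dot1l*), as did 6.07% of all tested probes, and none had an adjusted p under 0.05 (lowest 0.539), as 0.227% of all tested probes did.

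The second Meis1-KO array stood apart from the other 3. It had the fewest spots well above background (49.2%, against 54.7% to 57.4%) and the lowest 75th percentile of signal (90.3, against 147 to 154), and it correlated with the other arrays at 0.891 to 0.916 over tested probes, whereas the closest pair reached 0.967. Results that rest on it are given with and without it. Each slide held 1 array of each genotype, which allowed a difference within each slide.

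*Meis1* itself, the targeted gene, was lower on both probes. The brighter probe, A_52_P670612, read 0.25 and 0.22 on the Meis1-KO arrays and 1.02 and 1.45 on the control arrays, a difference of -0.997 (SE 0.436, limma adjusted p 0.983). A_52_P26195 read -2.46 and -3.54 against -1.55 and -1.06 (-1.70, SE 0.54), and passed the criteria once the slide entered the fit as a block, not otherwise. It was not well above background on the second Meis1-KO array, so that difference and that call rest on a dim value, and with the array set to its lowest signal well above background the difference was -1.55. Whether either probe lies within the removed exon was not analysed here. All 9 markers of LSK and stem cells (among them *Kit*, 1.95 and 1.81 in Meis1-KO, 2.03 and 2.14 in control, and *Cd34*) were well above background on all arrays, and none met the criteria.

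The 3 brighter probes of *Mllt3* had the largest differences of the set apart from 1 *Dot1l* probe, and they were the only 3 of the 20 that were lower by more than 2-fold on both slides. The main probe, A_52_P619007, read 3.28 and 2.28 on the Meis1-KO arrays and 4.36 and 4.00 on the control arrays. Both Meis1-KO values lay below both control values, and the difference was -1.09 on slide 1 and -1.72 on slide 2. In limma the log2 fold change was -1.40 (SE 0.51, 95% confidence interval -2.65 to -0.15), which is 2.64-fold lower, with an unadjusted p of 0.0334 and an adjusted p of 0.983. The study singled out *Mllt3* from these same arrays, so its direction is not independent evidence. The paper names it among genes with a profound reduction, whereas no *Mllt3* probe met the study's criteria here with all 4 arrays. Several of the paper's changes were verified by quantitative PCR, and its text does not say whether *Mllt3* was among them.

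The overlapping probe A_51_P394484 read 3.14 and 2.02 against 4.31 and 3.799, again without overlap between genotypes. Its log2 fold change was -1.48 (SE 0.55, unadjusted limma p 0.0341, adjusted p 0.983). The separate probe A_52_P329934 read 1.93 and 0.13 in Meis1-KO and 3.07 and 1.90 in control. Here the genotypes overlapped, since the first Meis1-KO array lay slightly above the second control array, although within each slide Meis1-KO was lower (log2 fold change -1.45, SE 0.74, unadjusted limma p 0.0969).

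The other 2 *Mllt3* probes differed less over the 4 arrays, and the slides disagreed in sign for both. A_52_P1066847 read -0.39 and 0.53 in Meis1-KO and 1.18 and -0.04 in control, lower on slide 1 by -1.58 and higher on slide 2 by 0.57 (log2 fold change -0.50, SE 0.60). On slide 1 it was lower by more than any other *Mllt3* probe, and the second Meis1-KO array lay above the second control array. A_52_P530665, which is 68.3% G and C, read -0.44, -0.51, -0.59 and -0.33 in the same order and differed by -0.02 (SE 0.42). These 2 probes are the most 3′ of the 5 on the minus strand: the overlapping pair lay 2784 and 2804 genomic bases upstream of A_52_P530665, and A_52_P329934 lay 4118 bases upstream of it. Whether transcripts with different ends or the probes themselves differ was not tested.

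**Figure D1:**
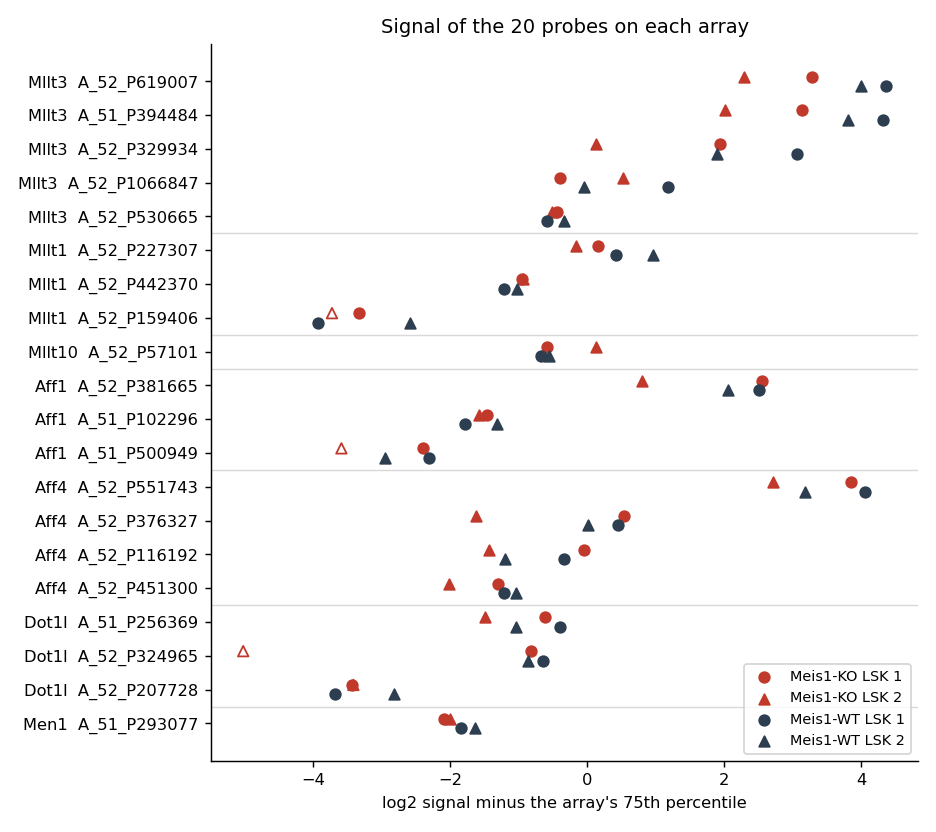
Log2 signal relative to the 75th percentile of the array (x axis) for each of the 20 probes (rows, grouped by gene) on the 2 Meis1-KO arrays (red) and the 2 control arrays (dark), with circles for slide 1 and triangles for slide 2; open symbols mark arrays on which the probe was not well above background. The top pair of *Mllt3* probes shows no overlap between genotypes, whereas most other rows overlap or are separated by a small gap.

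Without the second Meis1-KO array, the *Mllt3* main probe differed by -0.91 (SE 0.42, unadjusted limma p 0.0777), the overlapping probe by -0.92, A_52_P329934 by -0.55, A_52_P1066847 by -0.96 (SE 0.60) and A_52_P530665 by 0.02. Without the first Meis1-KO array, the main probe differed by -1.90 (unadjusted limma p 0.00463, adjusted p 0.0707) and met the criteria, as did 4 other probes of the set, all lower: both other upstream *Mllt3* probes, the *Aff4* probe A_52_P376327 and the *Dot1l* probe A_52_P324965. That fit, in which the lone Meis1-KO array is assumed to vary as the control arrays do, put 7.75% of all tested probes past the criteria in the lower direction. The main probe stayed below 0 under all 15 alternatives. For those that change only the test or the filter, its value is the same by construction. With 1 array left out it could not cross 0, since both Meis1-KO values lay below both control values. In bulk RNA of this kind, fewer cells that express a gene and less RNA per cell cannot be told apart.

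*Mllt1*, the close relative of *Mllt3*, had 3 probes. The main probe, A_52_P227307 (chr17:57032051-57032110, minus strand), read 0.16 and -0.17 in Meis1-KO and 0.43 and 0.95 in control. The genotypes did not overlap, but the difference of -0.69 (SE 0.45, unadjusted limma p 0.176) was under 2-fold. It was -0.26 on slide 1 and -1.12 on slide 2, and -0.53 without the second Meis1-KO array. A_52_P442370 went the other way by 0.18 (SE 0.42), with both Meis1-KO arrays above both control arrays by a small gap. A_52_P159406 was close to background throughout (-0.27, SE 0.58) and was not well above it on the second Meis1-KO array.

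The ratio of *Mllt3* to *Mllt1*, formed within each array from the main probes and so independent of the scaling between arrays, had log2 values of 3.11 and 2.45 in Meis1-KO and 3.94 and 3.05 in control. These values depend on the 2 probes and give no relative abundance, so only their difference between genotypes is read. The ratio was lower in Meis1-KO by -0.71, by -0.82 on slide 1 and -0.59 on slide 2, and by -0.38 without the second Meis1-KO array. The genotypes overlapped, since the first Meis1-KO array lay above the second control array, and the exact two-sided permutation test gave p 0.667. With 2 arrays against 2 this test cannot reach significance (its smallest p is 0.33).

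*Mllt10*, whose product AF10 is a cofactor of DOT1L, had 1 probe and was the one gene of the set whose main probe was higher. It read -0.58 and 0.13 in Meis1-KO and -0.67 and -0.56 in control. The log2 fold change of 0.39 (SE 0.47, 95% confidence interval -0.74 to 1.52) came mostly from slide 2, where the difference was 0.69, and it was 0.03 without the second Meis1-KO array.

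*Dot1l*, the H3 lysine 79 methyltransferase, had 3 probes with lower means in Meis1-KO and wide errors. The main probe, A_51_P256369 (chr10:80257030-80257089, plus strand), read -0.61 and -1.48 against -0.40 and -1.04 (-0.33, SE 0.52), with overlapping genotypes. Its difference was 0.11 without the second Meis1-KO array. The largest difference of all 20 probes belonged to A_52_P324965, whose sequence is given above: -0.82 and -5.02 in Meis1-KO against -0.64 and -0.87 in control (-2.17, SE 1.26, unadjusted limma p 0.136). It rested on the second Meis1-KO array, on which the probe was not well above background.

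With that array set to its lowest signal well above background, the difference of A_52_P324965 was -1.28 (2.44-fold lower), and without the array it was -0.07 (SE 0.41). A_52_P207728 differed by -0.17 (SE 0.48) and was also dim on the second Meis1-KO array. No *Dot1l* probe differed beyond its error on the remaining arrays.

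*Aff1* and *Aff4* encode the scaffolds of the super elongation complex, and none of their 7 probes met the criteria. For *Aff1*, the main probe A_52_P381665 (chr5:104284222-104284281, plus strand) read 2.54 and 0.80 in Meis1-KO and 2.51 and 2.05 in control. The second Meis1-KO array lay below the other 3, so that the log2 fold change of -0.61 (SE 0.66) turned to 0.27 (SE 0.43) without it. A_51_P102296, which the annotation places on the opposite strand from the other 2 *Aff1* probes, differed by 0.03 (SE 0.44), and A_51_P500949 by -0.35 (SE 0.57). The latter was not well above background on the second Meis1-KO array, with a difference of -0.19 when that array was set to its lowest signal well above background and 0.24 without it.

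For *Aff4*, the main probe A_52_P551743 (chr11:53234558-53234617, plus strand) read 3.85 and 2.72 against 4.06 and 3.18, a difference of -0.34 (SE 0.58) with overlapping genotypes. That difference turned to 0.23 without the second Meis1-KO array. A_52_P376327 read 0.54 and -1.62 against 0.45 and 0.02 (-0.78, SE 0.75), low on the second Meis1-KO array alone, and turned to 0.30 without it. A_52_P116192 differed by 0.02 (SE 0.62), and by 0.71 without that array. A_52_P451300, which lies 21015 genomic bases upstream of the main probe, was lower without overlap (-0.53, SE 0.47), and by -0.18 without the second Meis1-KO array.

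The ratio of *Aff1* to *Aff4* within arrays had log2 values of -1.31 and -1.92 in Meis1-KO and -1.55 and -1.13 in control. The difference of -0.27 had opposite signs on the slides (0.24 and -0.78), and the exact two-sided permutation test gave p 0.667.

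*Men1*, which encodes menin, had 1 probe, A_51_P293077 (chr19:6340368-6340427, plus strand). It read -2.09 and -2.01 in Meis1-KO and -1.84 and -1.63 in control. The replicates were close and the genotypes did not overlap, but the difference was small (-0.31, SE 0.42, 95% confidence interval -1.34 to 0.71, unadjusted limma p 0.485), and it was -0.36 without the second Meis1-KO array.

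**Figure D2:**
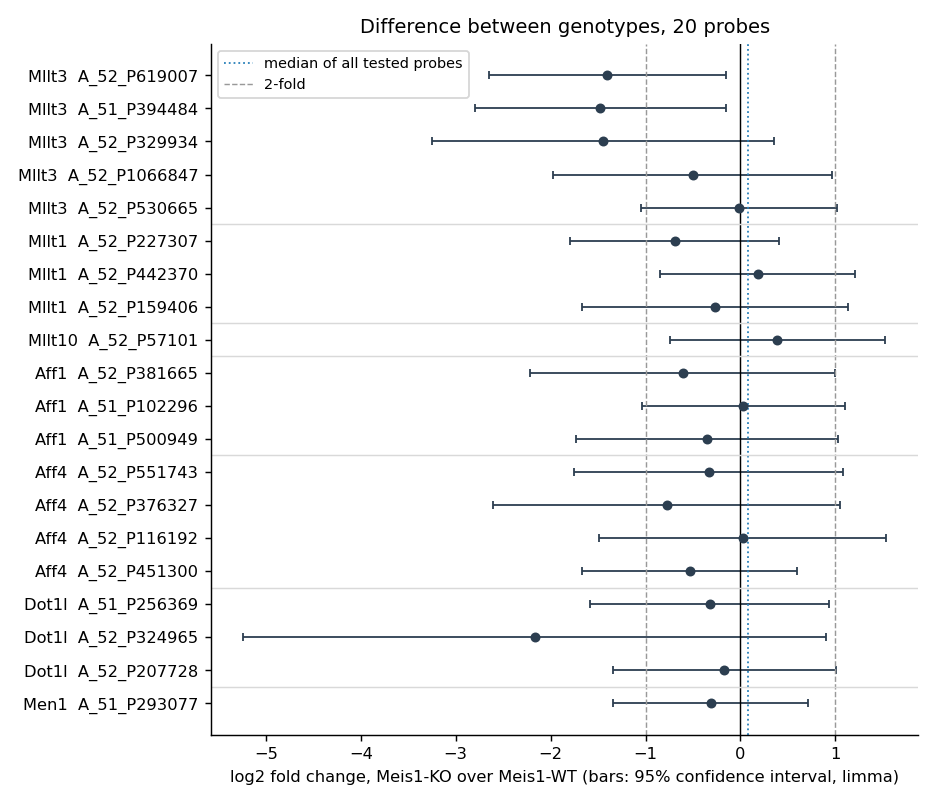
Log2 fold change of Meis1-KO over control with its 95% confidence interval from limma (x axis) for the 20 probes (rows); the solid line is 0, the dotted line the median of all tested probes and the dashed lines 2-fold. The intervals of the top 2 *Mllt3* probes, which share 40 bases, lie below 0, and the others include 0.

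Over the set, 16 of the 20 probes had a mean below control and 4 above, while 43.7% of all tested probes lay below. The median log2 fold change was -0.35 over the 20 probes and 0.08 over all tested probes. On both slides, 10 probes were lower (21% of all tested probes were) and 2 were higher (30.3%). Meis1-KO lay below control without overlap on 5 probes (10.9% of all tested probes) and above on 1 (16%). By main probes, 6 of the 7 genes lay below control (40.1% of 14737 tested genes did), 5 of them on both slides (19.3%).

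This tilt depended on the second Meis1-KO array. Without it, 10 of the 20 probes lay below control, against 47.1% of all tested probes: 4 of *Mllt3*, 2 of *Mllt1*, 2 of *Dot1l*, the *Men1* probe and 1 of *Aff4*. None of the 3 *Aff1* probes was among them. Of the main probes, those of *Mllt3*, *Mllt1* and *Men1* stayed below control without that array. Those of *Aff1*, *Aff4* and *Dot1l* moved above control, where that of *Mllt10* already lay. The probes of a gene share their transcripts, and several lie close together, so the 20 probes are not 20 independent measurements.

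**Figure D3:**
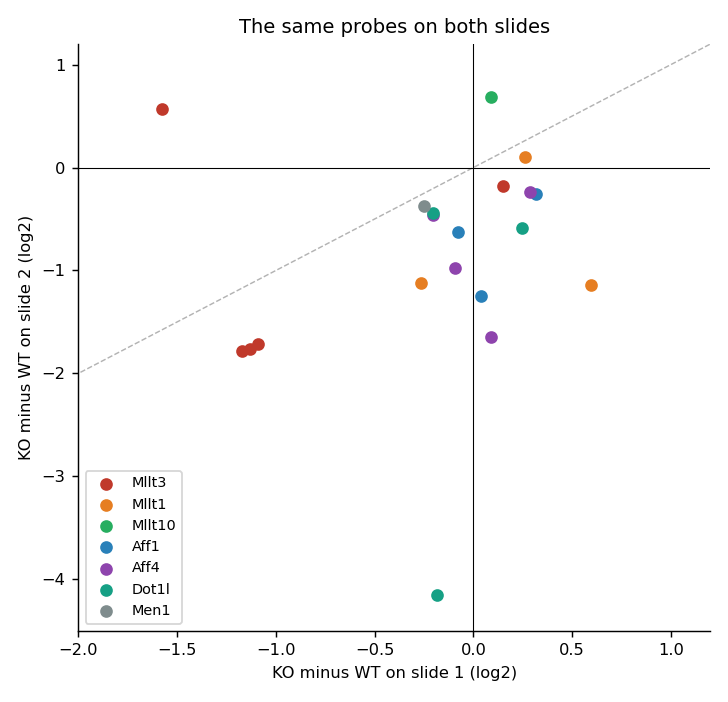
Difference between Meis1-KO and control on slide 1 (x axis, log2) against slide 2 (y axis, log2) for the 20 probes, colored by gene, with the line of equal differences dashed. Most probes sit near 0 on slide 1 and below 0 on slide 2, and 3 *Mllt3* probes form a group below -1 on both.

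**Figure D4:**
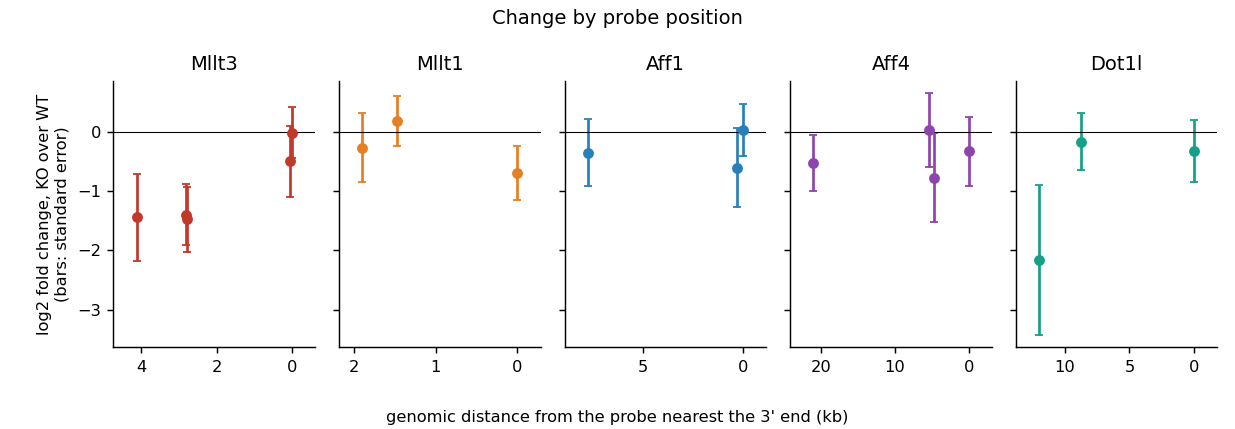
Log2 fold change with its standard error (y axis) against genomic distance in kb from the probe nearest the 3′ end of the gene (x axis, 5′ to the left) for the 5 genes with more than 1 probe. The *Mllt3* probes at 2784 to 4118 bases lie between -1.48 and -1.40 and the 2 at the 3′ end between -0.50 and -0.02, while the upstream *Dot1l* probe carries the widest error.

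The profile of the *Mllt3* main probe over the 4 arrays was compared with 11025 other genes that carry a gene symbol, not only an accession or clone name, and whose main probes were well above background on every array. The closest, by root mean square difference of log2 values after each probe's own mean was subtracted, were D10Ertd610e (0.03), *Mylk* (0.07), *Cox6a2* (0.09), *Apbb2* (0.10) and *Grasp* (0.14). D10Ertd610e read 0.73 and -0.33 in Meis1-KO and 1.81 and 1.47 in control. With 4 arrays this likeness is only a description. Among the other members' probes the nearest was the *Aff1* main probe, at 0.48.

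The wider machinery was examined through 6 lists, each gene by its main probe. The list of genes named MLL, COMPASS subunits and their cofactors had 18 tested genes, 11 with lower and 7 with higher means. None met the criteria (0.726% of tested genes did in the lower direction and 0.149% in the higher). The median was -0.27, against 0.13 over all tested genes. The list's median was 0.14 on slide 1 and -0.78 on slide 2, and without the second Meis1-KO array 3 of the 18 lay below control (median 0.29). *Mll5* had the most negative difference of those well above background on all arrays, with 3.05 and 0.48 in Meis1-KO against 3.14 and 2.05 in control (-0.83, SE 0.90), but it turned to 0.46 (SE 0.56) without the second Meis1-KO array. *Wdr82*, a subunit of the SETD1 complexes, had the most positive difference (0.63, SE 0.45), which was 0.37 without that array.

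In the super elongation complex and its regulators, 7 of 16 tested genes had lower and 9 higher means, with a median of 0.05, and without the second Meis1-KO array 5 lay below control. *Ell2*, an elongation factor of the complex, met the criteria. It read -1.66 and -2.44 in Meis1-KO and -0.16 and -0.41 in control, without overlap and with both slides lower (-1.76, SE 0.48, unadjusted limma p 0.00974, adjusted p 0.983). It also met them with the slide as a block, where 1.57% of tested genes did in the lower direction and 0.617% in the higher. Without the second Meis1-KO array the difference was -1.37 (SE 0.41, unadjusted limma p 0.0168), and the criteria were no longer met.

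The list of the DOT1L complex, YEATS proteins and genes grouped with them had 10 tested genes, of which only *Yeats4* encodes a YEATS protein. Lower means were found for 6 and higher means for 4 (median -0.17), and none met the criteria. Without the second Meis1-KO array 5 of the 10 lay below control (median -0.06). *Bcor*, a corepressor whose product binds AF9, read 1.30 and -1.98 in Meis1-KO and 1.39 and 0.52 in control (-1.29, SE 1.05), and differed by 0.34 without the second Meis1-KO array. *Yeats4* had the most positive difference (0.42, SE 0.46, and 0.22 without that array). The PAF1 complex, which binds RNA polymerase II and MLL, had 4 of 5 tested genes with lower means but a median of -0.03, from *Rtf1* (-0.31, SE 0.43) to *Wdr61* (0.37, SE 0.43). Without the second Meis1-KO array these were -0.13 and 0.19, 2 of the 5 genes lay below control and the median was 0.10.

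Among 23 tested genes for other fusion partners of MLL, 16 had lower and 7 higher means, with a median of -0.07, and none met the criteria. Without the second Meis1-KO array 12 of the 23 lay below control (median -0.01). *Crebbp*, a histone acetyltransferase, read 3.11 and -2.92 in Meis1-KO and 3.01 and 1.98 in control (-2.40, SE 1.79). That value came from the second Meis1-KO array as well, and the difference was 0.62 without it. *Abi1* had the most positive difference (0.65, SE 0.57), which was -0.01 (SE 0.41) without the same array.

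Genes known as targets of MLL fusions had 10 lower and 7 higher means of 17 tested, with a median of -0.10. The list's median was 0.07 on slide 1 and -0.04 on slide 2, and without the second Meis1-KO array 8 of the 17 lay below control (median 0.04).

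Markers of other cells varied between arrays. The summed linear level of the granulocyte and monocyte markers was 160 and 88.4 in Meis1-KO and 174 and 52.2 in control, that of the erythroid markers 99.2 and 247 against 88.6 and 28.1, and that of the plasma cell markers 4.999 and 25.8 against 27.2 and 13.4. Of the megakaryocyte markers it was 5.23 and 8.81 against 7.17 and 31.9, and of the B lineage markers 11.7 and 8.61 against 18.4 and 7.46. The T lineage markers summed to at most 0.757, with only 1 of 6 tested. *Hbb-b1* made up most of the erythroid sum on every array (93.6 and 243 against 79.0 and 21.99), and the median log2 fold change of the 7 tested erythroid markers was -0.08. Among all these markers, *Elane* met the criteria as lower (-1.57, SE 0.42) and *Rhag* as higher (1.72, SE 0.47). With the slide as a block, *Car1* (-1.77) and *Irf4* (-2.36, and -2.04 with the 1 Meis1-KO array on which it was not well above background set to that array's lowest signal well above it) also met them as lower. Without the second Meis1-KO array, *Rhag* no longer met them (1.65, unadjusted limma p 0.0143), whereas *Elane*, *Car1* and the plasma cell markers *Sdc1*, *Igj* and *Tnfrsf17* did, all lower. The part of such cells in the values of *Mllt3* and the other genes was not tested.

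RefSeq promoter windows (GRCm38.p6, 250 bases before to 50 after each start) were searched for TGACAG, the core of the site that MEIS proteins bind, on both strands. It was found in 19.2% of all 32851 windows and in 5 of the 13 windows of these genes. The share of all genes with a match was not computed, so the count of genes has no background beside it. A match was found for 3 of the 7 genes: *Mllt1*, *Men1* (3 overlapping windows with the same match) and 1 of 2 *Mllt3* starts. The match at that *Mllt3* start begins 50 bases before it and is given because this gene's main probe had the most negative log2 fold change of the 7 main probes, with the motif in capitals (chr4:87806358-87806383, minus strand).
Mllt3 start, GRCm38.p6: catgtgtttgCTGTCAtttaaactgc

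**Figure D5:**
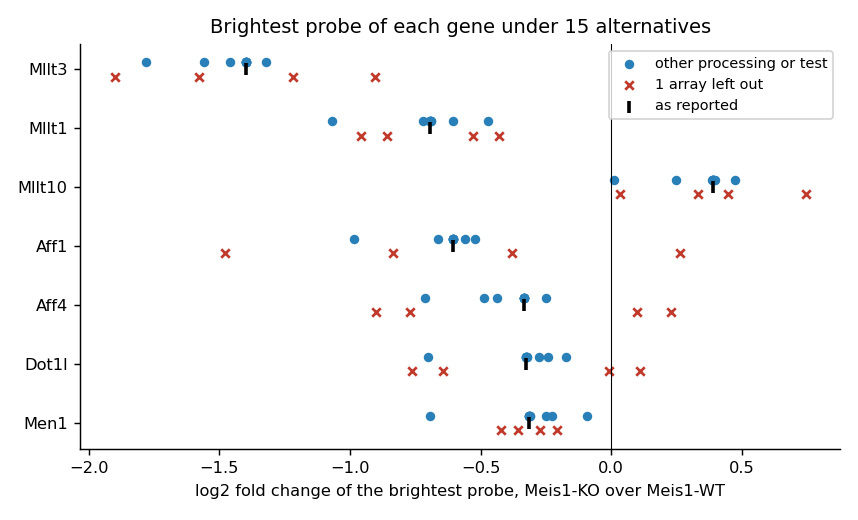
Log2 fold change of each gene's main probe (x axis) as reported (black bar), under other processing or tests (blue) and with 1 array left out (red crosses). *Mllt3* stays between -1.90 and -0.91, whereas *Aff1*, *Aff4* and *Dot1l* cross 0 when single arrays are left out.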

How the data were processed

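LSK cell RNA (10 ng per pool) was amplified, labelled with Cy3 and hybridized. The authors deposited spot intensities from Feature Extraction 9.5.3.1 per the file headers (the labels' processing notes give 9.1), background-subtracted within arrays, and a value table of the series with the same intensities unscaled. The members and lists were chosen with earlier results of these data known.

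Control and outlier spots were left out, the 75th percentile of an array's log2 intensities was subtracted from them, and genotypes were compared with limma 3.58.1 in R 4.3.3 (lmFit, eBayes, genotype as the only term). P-values were adjusted over all 22007 tested probes. With 2 pools per genotype, they rest on the spread between these pools, which limma draws toward the spread typical of all tested probes. For a probe with close replicates, such as that of *Men1*, the error is mostly this borrowed spread. The main probe of a gene is its brightest. Named genes are all probes of the members, list genes that met the criteria with or without the block, otherwise each list's largest fall and rise among probes well above background on all arrays, and 5 genes with profiles closest to *Mllt3*. 1 list gene that the rule names is not reported here. Arrays with the same replicate number shared a slide, per the files, and deviations of same-numbered arrays correlated at 0.266, so the slide was tried as a block. Other alternatives covered scaling, background, filters, outlier spots, tests and each array left out. Symbols of 19 of 20 probes matched RefSeq accessions. Array number and signal over background limit the precision. Protein sequences were not analysed here. The limma step was tested on simulated data.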

Additional observations from a re-analysis of the deposited data

How the results depend on the processing

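No probe of the 7 genes met the study's criteria under any of the 15 alternatives except without the first Meis1-KO array. Over all tested probes, 132 were lower and 30 higher by the criteria. With the slide as a replicate block, which moved no member across them, 307 were lower and 130 higher. The counts were 41 and 2 after normexp background correction, 43 and 10 for probes well above background on all arrays, 23 and 7 by the methods' t-test (none after Benjamini-Hochberg adjustment), and 85 and 16 with an intensity trend in limma. Without a filter on dim probes 100 were higher, and without scaling between arrays 14. With 1 array left out at a time, 57 to 1705 probes were lower, 34 to 510 higher, and 0 to 5 probes of the set lower. Leaving out an array moved the *Mllt3* main probe from -1.90 to -0.91.

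The scaling shifted the median log2 fold change of all tested probes from 0.08 to 0.17 (array median), 0.03 (quantile) and -0.30 (no scaling), and a member's change is read relative to it. The *Mllt3* probe A_52_P530665 turned to 0.0690 with array medians and to 0.0109 with quantile normalization. Without scaling, *Mllt1* A_52_P442370 turned to -0.20, *Aff1* A_51_P102296 to -0.35 and *Aff4* A_52_P116192 to -0.35.

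Leaving out 1 array at a time turned the sign of other values, none of which met the criteria with all 4 arrays. The lowest and highest values were -0.148 and 0.114 for *Mllt3* A_52_P530665, -1.12 and 0.110 for *Mllt3* A_52_P1066847, and -0.940 and 0.399 for *Mllt1* A_52_P159406. For *Aff1* they were -1.48 and 0.265 (A_52_P381665), -0.202 and 0.265 (A_51_P102296), and -0.953 and 0.243 (A_51_P500949). For *Aff4* they were -0.902 and 0.231 (A_52_P551743), -1.86 and 0.303 (A_52_P376327), and -0.668 and 0.715 (A_52_P116192). For *Dot1l* they were -0.763 and 0.112 (A_51_P256369) and -0.596 and 0.255 (A_52_P207728). The ratio of *Mllt3* to *Mllt1* ranged from -1.16 (without the second control array) to -0.264 (without the first), and that of *Aff1* to *Aff4* from -0.576 to 0.0341 when 1 array was left out. With the slides as 2 pairs, the exact sign-flip test gave p 0.5, the smallest it can give, for *Mllt3* to *Mllt1*, and p 1 for *Aff1* to *Aff4*. Counts of the pathway lists without the second Meis1-KO array were an alternative chosen after seeing the data. The causes were not tested.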
